A study of Mus musculus with 10 samples.

Results

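The genes described here encode the proteins that join neighbouring islet cells: cadherins and protocadherins, which bridge membranes, claudins, which form tight junctions, and connexins and pannexins, which form channels. They were chosen by symbol alone, as every entry of the deposited expression table that begins with Cdh, Pcdh, Cldn, Gja to Gjd or Panx and is followed by a member number or name. That gave 133 of 19213 entries: 23 cadherins, 12 protocadherins outside the gene clusters, 58 clustered protocadherins, 20 claudins, 17 connexins and 3 pannexins. RNA was sequenced from 3 endocrine cell types of the adult mouse islet after sorting by FACS. The somatostatin-secreting delta cells are represented by 2 libraries (1 female, 1 male), the glucagon-secreting alpha cells by 3 (1 female, 2 male) and the insulin-secreting beta cells by 5 (3 female, 2 male). All animals were triple transgenic. They carried the mIns1-H2b-mCherry reporter, in which the mouse Ins1 promoter drives a red nuclear protein in beta cells, a floxed YFP allele, and either Sst-Cre, which switches YFP on in delta cells, or Gcg-cre, which switches it on in alpha cells. For a replicate group, islets from 10 to 12 mice of 1 sex were combined and kept overnight in medium with 5.5 mM glucose; all RNA came from cells taken apart with trypsin before the sort. Beta cells came from the same islets as the delta or alpha cells, though which libraries share an islet pool is not stated.

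Cadherins bind cadherins on the next cell through calcium and are tied to the actin cytoskeleton inside by catenins. Claudins seal the space between epithelial cells or let chosen ions through it. Connexins assemble into gap junctions that pass ions and small molecules from cell to cell; in mouse islets, connexin 36, the product of Gjd2, couples beta cells electrically and is known for keeping their calcium oscillations in step. Pannexins resemble connexins but mostly form channels to the outside.

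The stretches just upstream of 5 members are shown because these genes carry the main patterns described below. Gjd2 is the main connexin gene and was enriched in beta cells. Cldn6 and Pcdh15 differ most between delta and beta cells on the log2(RPKM + 1) scale of the tests, an order that changed under other settings. Cldn3 and Cldn4 are neighbours on chromosome 5, of which Cldn3 differs between the cell types and Cldn4 does not pass the test. Sequences are from RefSeq (GRCm38.p6), 5′ to 3′ on the strand of the gene, and end at the RefSeq start, except that of Cldn6, which ends where the earliest exon in the GENCODE annotation begins. They lie at chr2:114013620-114013869 on the minus strand (Gjd2), chr10:73821617-73821866 on the plus strand (Pcdh15), chr17:23679115-23679248 on the plus strand (Cldn6), chr5:134985964-134986213 on the plus strand (Cldn3) and chr5:134946935-134947184 on the minus strand (Cldn4). The Pcdh15 window lies within the span that GENCODE gives for the gene. Capitals mark matches, on either strand, to a TATA box (TATAAA), a GC box (GGGCGG) or an E-box (CAGNTG), a choice made with the sequences in view.
Gjd2: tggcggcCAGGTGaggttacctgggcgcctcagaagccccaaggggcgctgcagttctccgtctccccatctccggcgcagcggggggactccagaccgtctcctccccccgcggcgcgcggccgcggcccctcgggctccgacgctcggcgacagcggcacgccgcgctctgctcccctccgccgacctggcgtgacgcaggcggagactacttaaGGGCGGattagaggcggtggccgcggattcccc
Pcdh15: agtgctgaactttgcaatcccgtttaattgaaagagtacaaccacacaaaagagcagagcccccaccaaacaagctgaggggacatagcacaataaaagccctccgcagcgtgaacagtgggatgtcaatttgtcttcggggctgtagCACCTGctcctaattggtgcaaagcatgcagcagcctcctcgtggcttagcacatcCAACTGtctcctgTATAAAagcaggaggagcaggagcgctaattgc
Cldn6: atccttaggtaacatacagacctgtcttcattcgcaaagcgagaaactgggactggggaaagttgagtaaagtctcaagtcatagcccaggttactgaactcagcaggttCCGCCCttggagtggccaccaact
Cldn3: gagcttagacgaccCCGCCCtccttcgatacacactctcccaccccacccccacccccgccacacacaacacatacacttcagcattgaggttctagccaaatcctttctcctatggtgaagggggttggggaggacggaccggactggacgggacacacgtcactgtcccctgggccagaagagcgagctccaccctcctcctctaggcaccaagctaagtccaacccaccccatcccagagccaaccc
Cldn4: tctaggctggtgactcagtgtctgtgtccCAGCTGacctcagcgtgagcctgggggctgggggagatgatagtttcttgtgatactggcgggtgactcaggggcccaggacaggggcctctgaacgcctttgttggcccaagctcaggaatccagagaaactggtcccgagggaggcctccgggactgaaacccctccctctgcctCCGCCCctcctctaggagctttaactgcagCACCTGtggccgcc
Pcdh15 alone of the 5 has TATAAA, 33 bases before its start, and it has an E-box at 102 and another at 46 bases before it. Gjd2 has a GC box 33 bases and an E-box 243 bases before its start, in a window of 74% G and C. Cldn4 has a GC box at 44 and E-boxes at 221 and 14 bases, Cldn3 a GC box at 236 bases, and Cldn6 a GC box 140 bases before the RefSeq start. Of 32851 promoters in the RefSeq table, 12.4% hold TATAAA, 32.7% the GC box and 44.8% the E-box in the same 250 bases, and 14.5% hold the GC box in the 134 bases shown for Cldn6. Of the 133 members, 48 have an entry in that table.

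Values are RPKM, the reads of a gene scaled to its length and to the size of the library. Library totals recovered from the steps between low values were 16688097 to 26684086 reads. The sorts separated the endocrine types. Beta cell markers stood in delta libraries at 1.02% to 2.49% and in alpha libraries at 0.692% to 2.56% of their beta level. Delta cell markers stood in alpha libraries at 1.74% to 3.23% of their delta level, except Rbp4 at 18.3%. Alpha cell markers stood in delta libraries at 8.72% to 15.4% of their alpha level. In beta libraries, alpha cell markers stood at 0.578% to 4.51% and delta cell markers at 0.542% to 1.16%, except Frzb at 52.9%. Summed acinar markers ranged from 701 to 923 RPKM in delta, from 93.5 to 3417 RPKM in alpha and from 221 to 10882 RPKM in beta libraries. Summed endothelial markers were 11.8 to 15.6, 8.19 to 11.4 and 6.46 to 12.8 RPKM in delta, alpha and beta libraries. Summed Schwann cell markers were 12.2 to 12.3 RPKM in delta, 6.87 to 8.04 RPKM in alpha and 3.07 to 4.16 RPKM in beta libraries. Summed immune markers were 61.8 to 78.5, 16.5 to 21.4 and 90.8 to 192 RPKM in delta, alpha and beta libraries. Of the 8 tested, 7 were called lower in delta and 8 in alpha than in beta cells. The remaining marker, C1qa, was called higher in delta than in beta cells. It averaged 65.6, 14.2 and 28.9 RPKM in delta, alpha and beta cells, and was most of the delta sum. C1qb, Csf1r and Cd52 averaged 0.0487, 0.04 and 0.156 RPKM in delta cells. Summed ductal markers were 1184 to 1338, 1063 to 2239 and 786 to 1027 RPKM, and summed mesenchymal markers 1.12 to 1.46, 4.29 to 5.38 and 0.327 to 1.74 RPKM. The part of these other cells in the results was not tested. In bulk RNA, fewer cells of a type and less RNA per cell cannot be told apart.

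Of the 133 members, 21 averaged at least 5 RPKM in delta cells, 11 in alpha cells and 13 in beta cells, which is 15.8%, 8.27% and 9.77% of them, beside 48.1%, 44.2% and 43.1% of all genes. At least 20 RPKM was reached by 10, 5 and 7 members, or 7.52%, 3.76% and 5.26%, beside 20%, 15.4% and 17.6% of all genes. Only members with at least 1 RPKM in at least 2 libraries were tested. These were 52, and the other 81 are described by their levels. The 2 delta libraries alone can meet that limit, and 47 members met it when either delta library was left out. Cldn2, Pcdh9, Pcdh15 and Pcdha12, for example, reached 1 RPKM in delta libraries only. A call of higher in delta cells was largely set by the limit for members that entered this way. Each of the 52 was tested with limma on the log2(RPKM + 1) scale, in a single model of the 10 libraries with terms for cell type and sex. P-values were adjusted over all 12700 genes tested, and “called” means an adjusted p below 0.05. Differences between cell types are given on that log2 scale, levels in RPKM. In delta against beta cells 33 of the 52 were called higher and 3 lower, against 37.4% and 13.3% of all tested genes. In alpha against beta cells 8 were called higher and 19 lower, against 23.7% and 30.3% of all genes. In delta against alpha cells 37 were called higher and 3 lower, against 32.1% and 5.89%. The median log2 difference of the members was 0.62, -0.19 and 0.78 in these comparisons, beside 0.25, -0.02 and 0.26 over all genes tested, so the whole table was shifted towards delta cells by about that much. Median-ratio scaling brought the median of all genes to -0.005 against beta and -0.013 against alpha cells. It called 26 members higher and 7 lower in delta against beta cells (24.2% and 24.5% of all genes), 10 and 19 in alpha against beta cells (27.9% and 29.1%) and 31 and 4 in delta against alpha cells (14.3% and 10.5%). Quantile normalization called 20 and 10 (22.5% and 25.2%), 6 and 28 (28% and 27.2%) and 30 and 5 (15.5% and 16.1%) in the same comparisons. Without delta replicate 1, where 47 members were tested, fewer were called higher in delta cells against both other types. The share of all genes called in that fit is not given, and a single delta library is then assumed to vary like the other groups.

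A member was taken as enriched in 1 type where both comparisons with the remaining types called it higher and gave a log2 difference of 1 or more. This held for 10 members in delta cells (Cdh2, Cdh4, Cdh22, Cldn3, Cldn6, Cldn9, Pcdh9, Pcdh15, Pcdhb1 and Pcdhga10), 1 in alpha cells (Cdh9) and 2 in beta cells (Gjd2 and Cdh7). Of all tested genes, 4.73%, 1.8% and 3.01% met the same rule for delta, alpha and beta cells. No member was called for sex by limma, against 0.0157% of all genes called higher and 0.0315% called lower in females than in males. An unadjusted p under 0.05 was found for 10 of 52 members (19.2%), against 4.99% of all genes. Of these 10, 9 were clustered protocadherins with higher values in females. Clustered protocadherins were 28 of the 52 tested members, and 58% of all genes at that unadjusted p were higher in females. The interaction of cell type and sex, tested in alpha and beta libraries, called 0 of 46 members and 0 of all 12273 genes tested. The lack of a call was thus not particular to the members, of which 0 had an unadjusted p under 0.05.

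**Figure D1:**
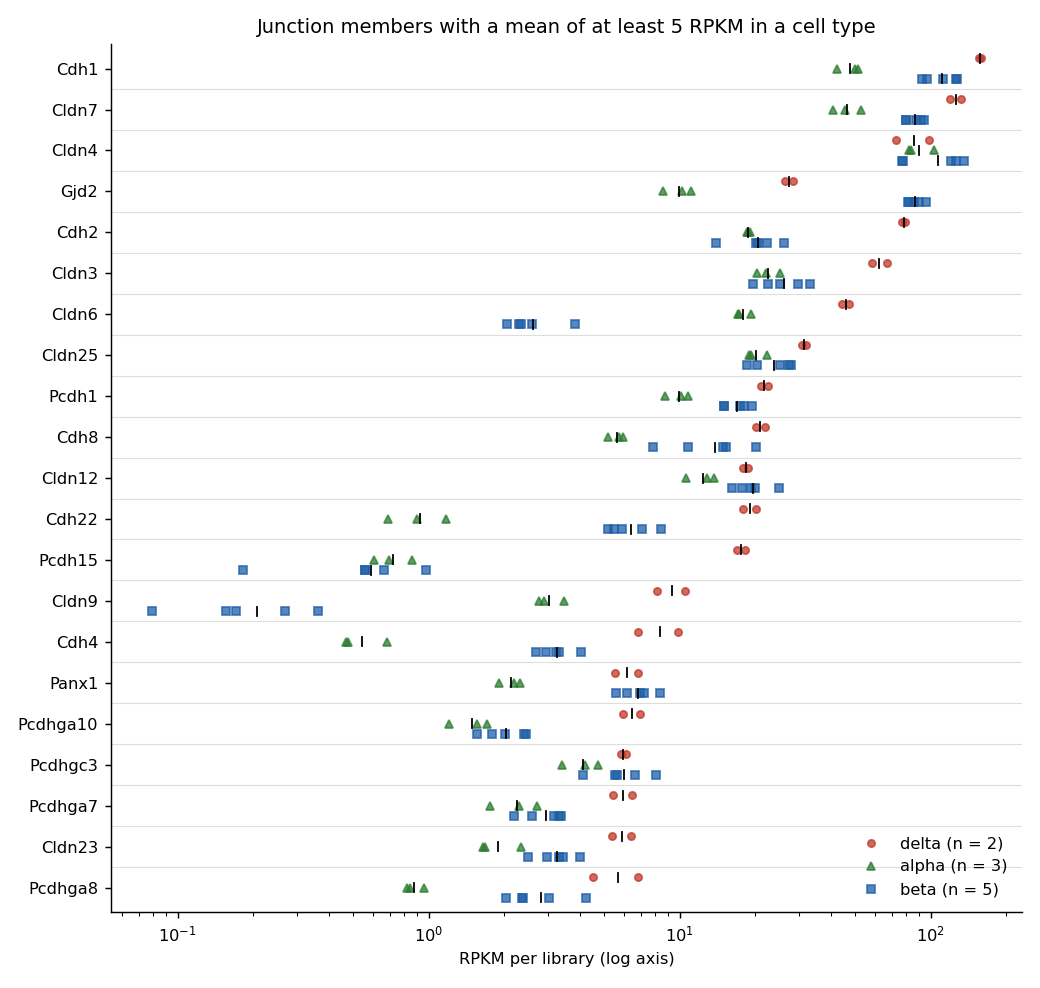
RPKM of the 21 members that averaged at least 5 RPKM in a cell type, on a log axis, with a point per library (delta, n = 2; alpha, n = 3; beta, n = 5) and a bar at the mean of each group. Gjd2 is highest in beta libraries, while Cldn6, Cldn9, Pcdh15, Cdh2 and Cldn3 are highest in both delta libraries and lie clear of the other groups.

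Gjd2, on chromosome 2 (114009601 to 114013619, minus strand), was, with Cdh7, 1 of 2 members enriched in beta cells. It measured 26.4 and 28.3 RPKM in delta libraries, 11.1, 8.62 and 10.2 RPKM in alpha libraries, and 81.7, 95.8, 86.1, 90.3 and 81.2 RPKM in beta libraries. No library of one type overlapped those of another, and the order was beta, delta, alpha. The mean was 27.4 ± 1.37 RPKM in delta cells (SD, n = 2), 9.98 ± 1.26 RPKM in alpha cells (n = 3) and 87.0 ± 6.14 RPKM in beta cells (n = 5). On the log2(RPKM + 1) scale Gjd2 differed from its beta level by -1.62 (SE 0.11, limma adjusted p = 2.82e-06) in delta cells and by -2.99 (SE 0.10, adjusted p = 3.54e-08) in alpha cells, and delta cells exceeded alpha cells by 1.36 (SE 0.12, adjusted p = 2.46e-05). Delta cells thus held 31.4% and alpha cells 11.5% of the beta mean, while the 6 beta cell markers Ins1, Ins2, Mafa, Ucn3, Slc2a2 and G6pc2 had medians of 1.11% in delta and 0.836% in alpha libraries. Over the 10 libraries Gjd2 was read 34108 times.

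Gjd2 made up nearly all connexin RNA. It took 95.0% and 96.6% of the summed connexin RPKM in the delta libraries, 83.1% to 92.0% in alpha libraries and 97.0% to 99.3% in beta libraries. The other 16 connexins were under 1 RPKM in every library. The highest value among them was that of Gjb2, a connexin of epithelia, at 0.967 RPKM in beta replicate 5. Gja1, the widespread connexin of many tissues, had 71 reads over all libraries and ranged over 0.0159 to 0.0520 RPKM in delta, 0.0193 to 0.314 RPKM in alpha and 0.0396 to 0.218 RPKM in beta libraries.

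Panx1, a pannexin known for releasing ATP, was lower in alpha cells. It measured 5.51 and 6.80 RPKM in delta libraries, 2.20, 2.31 and 1.91 RPKM in alpha libraries, and 6.19, 6.92, 5.59, 8.34 and 7.22 RPKM in beta libraries. The alpha libraries lay below all others, and delta and beta libraries overlapped. Alpha cells fell below beta cells (-1.27, SE 0.12, adjusted p = 2.96e-05) on the log2 scale, and delta cells exceeded alpha cells by 1.16 (SE 0.15, adjusted p = 0.000316). Delta and beta cells differed by -0.11 (SE 0.14, adjusted p = 0.5). Panx2 averaged 3.49 ± 0.422 RPKM in delta, 3.97 ± 0.546 RPKM in alpha and 2.92 ± 0.484 RPKM in beta cells and was not called in any comparison. Its difference between alpha and beta cells, 0.33 (adjusted p = 0.0719), was called with sex left out of the model (adjusted p = 0.0452) and without beta replicate 4 (adjusted p = 0.0492). Panx3 was at most 0.0224 RPKM.

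**Figure D2:**
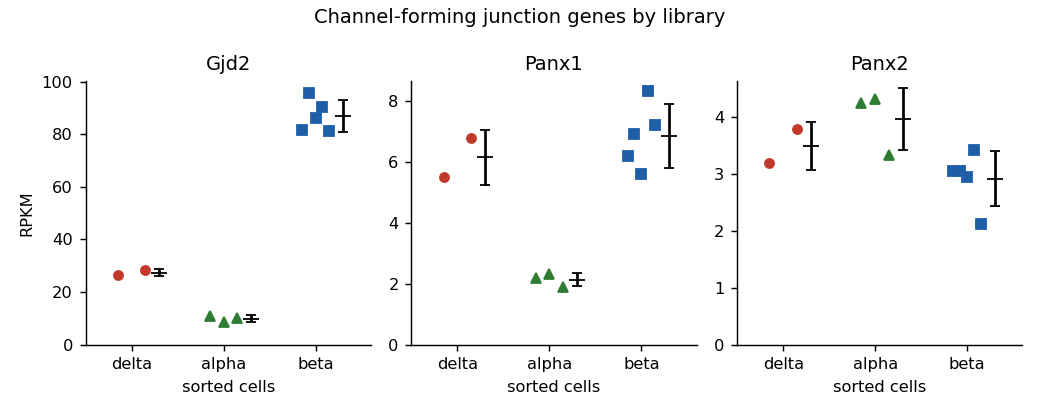
RPKM of Gjd2, Panx1 and Panx2 in each library of delta, alpha and beta cells, with the mean and SD of each group beside the points; each panel has its own axis from 0. Gjd2 is at 81.2 RPKM or more in the beta libraries and at 28.3 RPKM or less in all others, and Panx1 is at 2.31 RPKM or less in alpha libraries.

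Among the cadherins, delta cells held the most RNA. The summed RPKM of the 23 cadherins was 286 ± 3.91 in delta, 80.3 ± 4.05 in alpha and 159 ± 21.0 in beta cells. Of the 7 cadherins tested, delta against beta cells called 6 higher and 1 lower (median 0.67), alpha against beta cells 1 higher and 5 lower (median -1.17), and delta against alpha cells 5 higher and 1 lower (median 1.69). Of all tested genes, 37.4% were called higher and 13.3% lower, 23.7% and 30.3%, and 32.1% and 5.89% in these comparisons. For delta against beta cells, median-ratio scaling and quantile normalization each called 4 cadherins higher and 1 lower. Of all genes, 24.2% and 24.5% were called higher and lower with the first of these and 22.5% and 25.2% with the second. Cdh1 encodes E-cadherin, the main cadherin of epithelia, and lies on chromosome 8. It measured 155 and 159 RPKM in delta libraries, 42.4, 51.3 and 50.1 RPKM in alpha libraries and 92.4, 112, 126, 96.5 and 128 RPKM in beta libraries, with no overlap between the types. Alpha cells were lower than beta cells (-1.17, SE 0.13, adjusted p = 7.79e-05), and delta cells were higher than alpha cells by 1.69 (SE 0.16, adjusted p = 4.6e-05). The gain of delta over beta cells, 0.51 (SE 0.15, adjusted p = 0.0169), was not called with median-ratio scaling (0.22, adjusted p = 0.164) or when delta replicate 1 or 2 was left out (adjusted p = 0.123 and 0.093).

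Cdh2, which encodes N-cadherin, the cadherin of nerve and muscle, was enriched in delta cells but was also present in every alpha and beta library. It measured 77.2 and 79.3 RPKM in delta libraries, 19.1, 18.8 and 18.6 RPKM in alpha libraries and 14.0, 20.6, 20.2, 22.2 and 26.1 RPKM in beta libraries. Both delta libraries lay far above all others, while the alpha libraries lay inside the beta range. The difference was 1.92 (SE 0.16, adjusted p = 1.66e-05) against beta cells and 1.96 (SE 0.18, adjusted p = 3.67e-05) against alpha cells; alpha and beta cells differed by -0.04 (SE 0.15, adjusted p = 0.825). Set against Cdh1 in the same library, Cdh2 stood at 49.7% and 49.9% of the Cdh1 level in delta libraries, 36.6% to 45.0% in alpha libraries and 15.1% to 23.1% in beta libraries.

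Cdh22, a classical cadherin first known from pituitary and brain, and Cdh4, which encodes R-cadherin, followed a common order of delta, beta, alpha. Cdh22 measured 20.2 and 17.9 RPKM in delta libraries, 0.902, 1.17 and 0.688 RPKM in alpha libraries and 8.43, 5.48, 7.08, 5.89 and 5.18 RPKM in beta libraries. Cdh4 measured 6.86 and 9.87 RPKM in delta libraries, 0.680, 0.476 and 0.470 RPKM in alpha libraries and 2.95, 3.22, 3.32, 4.03 and 2.67 RPKM in beta libraries. In both genes the 3 types did not overlap. Cdh22 differed by 1.42 (SE 0.12, adjusted p = 1.53e-05) between delta and beta, by -2.02 (SE 0.11, adjusted p = 6.63e-07) between alpha and beta and by 3.44 (SE 0.13, adjusted p = 3.15e-07) between delta and alpha cells. For Cdh4 these differences were 1.14, -1.43 and 2.57, with adjusted p of 0.000403, 3.93e-05 and 5.6e-06. Both genes lie on chromosome 2.

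The type II cadherins Cdh8, Cdh7 and Cdh9 each had a pattern of its own. Cdh8 averaged 21.0 ± 1.17 RPKM in delta, 5.61 ± 0.396 RPKM in alpha and 13.8 ± 4.72 RPKM in beta cells, and its beta libraries ran from 7.84 to 20.3 RPKM. Alpha cells were lower than beta cells (-1.0, SE 0.21, adjusted p = 0.00303); the excess of delta over beta cells, 0.67 (SE 0.23, adjusted p = 0.0365), was not called without delta replicate 1 (0.37, adjusted p = 0.387) or with median-ratio scaling (0.39, adjusted p = 0.14), nor without beta replicate 1, 2 or 3 or alpha replicate 2 (adjusted p = 0.0511, 0.0561, 0.0613 and 0.0517). Cdh7 measured 0.162 and 0.305 RPKM in delta libraries, 0.179, 0.194 and 0.205 RPKM in alpha libraries and 0.808, 1.92, 2.92, 2.50 and 4.59 RPKM in beta libraries. It was thus low but higher in every beta library, with differences of -1.40 for delta (SE 0.32, adjusted p = 0.00588) and -1.40 for alpha cells (SE 0.28, adjusted p = 0.00287), the delta one at adjusted p = 0.0661 without delta replicate 2. Cdh9 measured 0.563 and 0.650 RPKM in delta libraries, 4.63, 2.98 and 4.51 RPKM in alpha libraries and at most 0.0517 RPKM in beta libraries. It was highest in alpha cells, 2.30 higher than in beta cells (SE 0.12, adjusted p = 6.31e-07), and delta cells were lower than alpha cells (-1.65, SE 0.15, adjusted p = 3.26e-05). Its delta mean was 15% of its alpha mean, within the 8.72% to 15.4% at which the alpha cell markers stood in delta libraries. Its call between delta and beta cells (0.66, adjusted p = 0.00356) was lost once the alpha share set by Gcg was subtracted from the delta libraries (0.30, adjusted p = 0.0943), and without delta replicate 1 (adjusted p = 0.0515).

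The claudins were led by Cldn7 and Cldn4, both claudins of many epithelia. The 20 claudins summed to 389 ± 1.42 RPKM in delta, 217 ± 22.2 RPKM in alpha and 272 ± 35.6 RPKM in beta cells. Of the 10 tested, delta against beta cells called 7 higher and 0 lower (median 0.65), alpha against beta cells 3 higher and 4 lower (median -0.28), and delta against alpha cells 8 higher and 0 lower (median 1.18); with median-ratio scaling the first of these was 6 higher and 2 lower. Without rescaling, the shares of all tested genes were 37.4% and 13.3%, 23.7% and 30.3%, and 32.1% and 5.89% in these comparisons. With median-ratio scaling they were 24.2% and 24.5% in delta against beta cells. Cldn7 measured 119 and 132 RPKM in delta libraries and 40.8, 52.6 and 45.7 RPKM in alpha libraries. Its beta libraries measured 91.5, 80.1, 94.3, 87.7 and 80.0 RPKM. The types did not overlap; alpha cells were lower than beta cells (-0.91, SE 0.10, adjusted p = 8.3e-05) and delta cells higher than alpha cells by 1.44 (SE 0.13, adjusted p = 2.82e-05). Delta cells exceeded beta cells by 0.53 (SE 0.11, adjusted p = 0.00478); neither median-ratio scaling (0.23, adjusted p = 0.18) nor the fit lacking delta replicate 2 (adjusted p = 0.0907) kept that call.

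Cldn4 did not follow Cldn7. It measured 98.5 and 73.0 RPKM in delta libraries, 82.4, 103 and 83.6 RPKM in alpha libraries and 121, 76.9, 126, 77.6 and 136 RPKM in beta libraries, and the groups overlapped. The differences were -0.33 (SE 0.21, adjusted p = 0.215) for delta and -0.31 (SE 0.19, adjusted p = 0.186) for alpha against beta cells and -0.02 (SE 0.23, adjusted p = 0.966) between delta and alpha cells; with median-ratio scaling delta cells were called lower than beta cells (-0.62, adjusted p = 0.0216). The beta replicates with the highest Cldn4, 1, 3 and 5, were also those with the most acinar RNA, whose summed markers were 10882, 2154 and 4565 RPKM there and 490 and 221 RPKM in beta replicates 2 and 4. Krt19, a duct cell keratin, was 10.8, 8.28 and 14.4 RPKM in the same 3 libraries and 2.03 and 3.16 RPKM in the other two. The part of exocrine RNA in the Cldn4 values was not tested.

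Cldn3, which lies 39279 bases from Cldn4 on chromosome 5, separated delta cells. It measured 58.4 and 66.8 RPKM in delta libraries, 22, 25.2 and 20.4 RPKM in alpha libraries and 29.7, 22.5, 33.2, 19.7 and 25.2 RPKM in beta libraries. Delta libraries lay above all others and alpha libraries inside the beta range. The difference was 1.23 (SE 0.15, adjusted p = 0.000205) against beta and 1.48 (SE 0.17, adjusted p = 0.000152) against alpha cells; alpha and beta cells differed by -0.25 (SE 0.14, adjusted p = 0.153).

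Cldn6 and Cldn9 showed the widest spread of the claudins. Cldn6, a claudin of embryonic epithelia, measured 44.5 and 47.4 RPKM in delta libraries, 19.2, 17.2 and 17.1 RPKM in alpha libraries and 2.05, 2.34, 3.81, 2.29 and 2.59 RPKM in beta libraries. Cldn9, a claudin of the inner ear and of young epithelia, measured 8.16 and 10.5 RPKM in delta libraries, 3.45, 2.87 and 2.74 RPKM in alpha libraries and 0.0793, 0.170, 0.156, 0.268 and 0.364 RPKM in beta libraries. Both genes ran in the order delta, alpha, beta without overlap. The difference from beta cells was 3.71 (SE 0.16, adjusted p = 2.43e-07) for Cldn6 and 3.11 (SE 0.13, adjusted p = 2.03e-07) for Cldn9 in delta cells, and 2.37 (SE 0.15, adjusted p = 1.9e-06) and 1.77 (SE 0.12, adjusted p = 3.01e-06) in alpha cells. Delta cells exceeded alpha cells by 1.33 (SE 0.18, adjusted p = 0.000416) for Cldn6 and 1.34 (SE 0.14, adjusted p = 0.000104) for Cldn9. The alpha mean was 38.8% of the delta mean for Cldn6 and 32.3% for Cldn9, above the 1.74% to 18.3% at which delta cell markers stood in alpha libraries. The pair are neighbours on chromosome 17, Cldn6 on the plus strand (23679249 to 23682446) and Cldn9 on the minus strand (23682584 to 23684026), with 137 bases between their ends. Since the library kit does not mark the strand, a read past the end of one gene would count for the other.

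Lower claudins differed as well. Cldn11, a claudin of myelin and of Sertoli cells, measured 2.09 and 1.32 RPKM in delta libraries, 2.02, 3.01 and 1.35 RPKM in alpha libraries and at most 0.253 RPKM in beta libraries. It was higher than in beta cells by 1.18 (adjusted p = 0.00045) in delta and by 1.33 (adjusted p = 8.6e-05) in alpha cells, which overlapped. Cldn2, a claudin that forms cation pores, reached 1 RPKM in delta libraries only, so its calls as higher in delta cells were largely set by the limit for testing. It averaged 1.40 ± 0.262 RPKM in delta, 0.0885 ± 0.0698 RPKM in alpha and 0.631 ± 0.228 RPKM in beta cells. It was called in all 3 comparisons, in the order delta, beta, alpha. Cldn23 followed the same order at 5.92, 1.89 and 3.25 RPKM in delta, alpha and beta cells, again called in each. The delta excess over beta cells was lost with quantile normalization for Cldn2 (adjusted p = 0.348) and Cldn23 (adjusted p = 0.161). For Cldn23 it was also lost without delta replicate 2 (adjusted p = 0.076), and the alpha call against beta cells without alpha replicate 3 (adjusted p = 0.124). Cldn12 averaged 18.4 ± 0.593 RPKM in delta, 12.4 ± 1.59 RPKM in alpha and 19.6 ± 3.32 RPKM in beta cells and was lower in alpha than in beta cells (-0.57, SE 0.13, adjusted p = 0.00516). The entry named Cldn25 averaged 31.3 ± 0.957, 20.2 ± 1.88 and 23.8 ± 4.18 RPKM in delta, alpha and beta cells; that symbol is an older name of more than 1 gene in RefSeq, so its identity is uncertain.

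**Figure D3:**
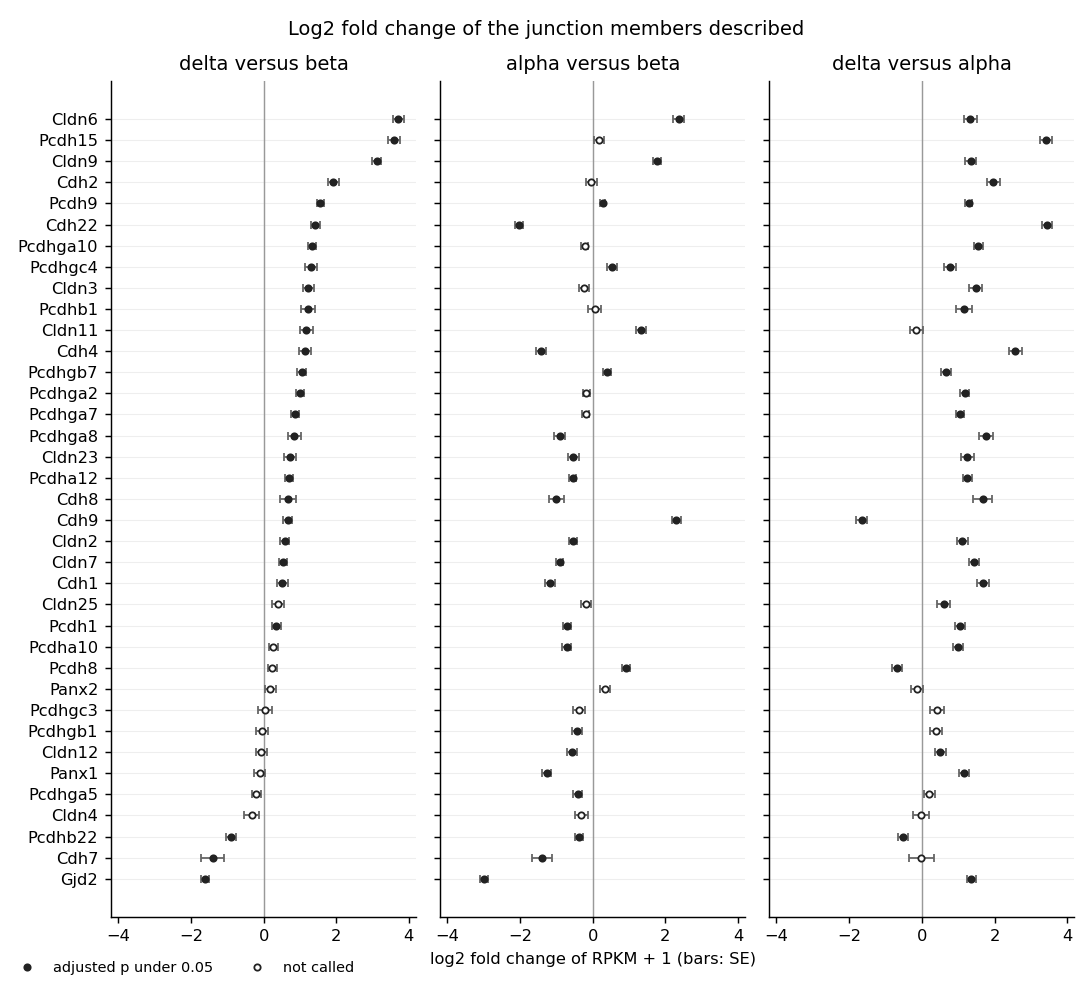
Log2 fold change of RPKM + 1 with its standard error for the tested members described by name, in delta against beta, alpha against beta and delta against alpha cells; filled points were called by limma at an adjusted p under 0.05 and open points were not. Cldn6, Pcdh15 and Cldn9 lead the delta against beta comparison at 3.71, 3.59 and 3.11, and Gjd2 ends the alpha against beta comparison at -2.99.

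Of the protocadherins outside the clusters, 4 of 12 were tested. Pcdh15 encodes a long cadherin that, with the product of Cdh23, forms the tip link of hair cells in the inner ear. It measured 17.0 and 18.2 RPKM in delta libraries, 0.855, 0.608 and 0.696 RPKM in alpha libraries and 0.181, 0.558, 0.560, 0.662 and 0.978 RPKM in beta libraries. Delta cells stood far above both other types, which overlapped. The differences were 3.59 (SE 0.16, adjusted p = 2.43e-07) from beta and 3.41 (SE 0.17, adjusted p = 1.14e-06) from alpha cells. Its alpha mean was 4.09% of its delta mean. Delta cell markers in alpha libraries had a median of 2.01% and lay at 3.23% or less, except Rbp4 at 18.3%. Pcdh9, at a lower level, was also highest in delta cells, with 2.0 and 2.01 RPKM in delta libraries, 0.221, 0.342 and 0.138 RPKM in alpha libraries and at most 0.0276 RPKM in beta libraries. It differed by 1.56 (SE 0.09, adjusted p = 1.37e-06) from beta and 1.29 (SE 0.10, adjusted p = 1.3e-05) from alpha cells. Its alpha libraries lay above the beta libraries, by 0.27 (SE 0.08, adjusted p = 0.0202), a call lost without beta replicate 1 or 3 or alpha replicate 2 (adjusted p = 0.057, 0.0568 and 0.0694).

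Pcdh1, which is known from airway and other epithelia, averaged 21.8 ± 0.900 RPKM in delta, 9.92 ± 1.07 RPKM in alpha and 17.0 ± 1.92 RPKM in beta cells. It was lower in alpha than in beta cells (-0.70, SE 0.11, adjusted p = 0.000681). The delta excess over beta cells, 0.35 (SE 0.12, adjusted p = 0.0382), was called neither with median-ratio scaling (0.07, adjusted p = 0.665) nor without delta replicate 1 or 2 (adjusted p = 0.193 and 0.165), beta replicate 1 or 4 (adjusted p = 0.0699 and 0.0613) or alpha replicate 3 (adjusted p = 0.0561). Pcdh8, a neuronal protocadherin, was highest in alpha cells, at 0.235 and 0.336 RPKM in delta libraries, 1.30, 1.23 and 0.731 RPKM in alpha libraries and at most 0.131 RPKM in beta libraries. Alpha cells exceeded beta cells by 0.92 (SE 0.11, adjusted p = 0.000106), and delta cells were lower than alpha cells (-0.68, SE 0.13, adjusted p = 0.00344), which was not called without delta replicate 1 (adjusted p = 0.0881).

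The clustered protocadherins are read from 3 neighbouring arrays of first exons on chromosome 18, alpha, beta and gamma; in neurons each cell uses few of them, which gives it a surface identity of its own. In the alpha and gamma clusters every first exon is joined to shared last exons. The deposited values treat each as a gene. The lengths behind the alpha cluster values, 5206 to 5422 bases, include the shared exons, yet Pcdha4 had 15 reads over the 10 libraries and Pcdha10 had 1339, so shared reads were not counted for every member and single isoform levels are uncertain. The alpha cluster summed to 7.89 ± 0.830 RPKM in delta, 1.53 ± 0.254 RPKM in alpha and 5.84 ± 1.81 RPKM in beta cells, with the alpha libraries below the rest. The beta cluster summed to 19.6 ± 1.07, 18.7 ± 3.42 and 17.9 ± 5.40 RPKM, and the ranges of the 3 types overlapped. The gamma cluster summed to 66.6 ± 3.58, 29.9 ± 4.65 and 36.8 ± 7.06 RPKM in delta, alpha and beta cells, and the delta libraries lay above the rest.

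Of the 28 clustered genes tested, delta against beta cells called 17 higher and 1 lower, beside 37.4% and 13.3% of all tested genes. Most of the 17 were gamma genes. Quantile normalization called 9 of the 28 higher and 7 lower (median 0.12), beside 22.5% and 25.2% of all genes. The delta excess of the clustered genes thus depended on the scaling. Of the 19 gamma genes tested, delta against beta cells called 15 higher and 0 lower (median 0.76), alpha against beta cells 2 higher and 4 lower (median -0.18), and delta against alpha cells 15 higher and 0 lower (median 0.70). With median-ratio scaling the first count was 12 higher and 1 lower (24.2% and 24.5% of all genes), and with quantile normalization 8 and 2 (22.5% and 25.2%). Quantile normalization gave 1 higher and 11 lower in alpha against beta cells (28% and 27.2% of all genes), and 11 and 0 in delta against alpha cells (15.5% and 16.1%). Without rescaling, the shares of all tested genes were 23.7% and 30.3% in alpha against beta and 32.1% and 5.89% in delta against alpha cells. Pcdhga10 measured 5.97 and 6.98 RPKM in delta libraries, 1.2, 1.56 and 1.71 RPKM in alpha libraries and 1.56, 2.44, 1.79, 2.39 and 2.01 RPKM in beta libraries. Delta libraries lay above all others, by 1.33 (SE 0.11, adjusted p = 1.53e-05) against beta and 1.55 (SE 0.12, adjusted p = 1.53e-05) against alpha cells. Pcdhga2 (2.80, 0.655 and 0.937 RPKM in delta, alpha and beta cells), Pcdhga7 (5.94, 2.25 and 2.93 RPKM) and Pcdhga8 (5.68, 0.874 and 2.80 RPKM) were called higher in delta than in each other type, Pcdhga8 not against beta cells under quantile normalization (0.39, adjusted p = 0.158) or once delta replicate 2 was left out (adjusted p = 0.0569). Pcdhgc4 averaged 2.93 ± 0.255 RPKM in delta, 1.25 ± 0.375 RPKM in alpha and 0.636 ± 0.246 RPKM in beta cells, and Pcdhgb7 averaged 2.96 ± 0.338, 1.46 ± 0.319 and 0.936 ± 0.184 RPKM; both were called higher in delta and in alpha than in beta cells, the alpha calls being lost without alpha replicate 3 (adjusted p = 0.0629 and 0.0856) and, for Pcdhgc4, without alpha replicate 2 (adjusted p = 0.0502). Pcdhgc3 averaged 5.97 ± 0.181 RPKM in delta, 4.12 ± 0.674 RPKM in alpha and 6.0 ± 1.47 RPKM in beta cells and was not called in any comparison; alpha cells were called lower than beta cells with quantile normalization (-0.50, adjusted p = 0.0116), without beta replicate 1 (adjusted p = 0.0261) and without alpha replicate 2 (adjusted p = 0.0499). Pcdhga5 (-0.41, adjusted p = 0.0175) and Pcdhgb1 (-0.44, adjusted p = 0.0256) were called lower in alpha than in beta cells, and neither was called without alpha replicate 3 (adjusted p = 0.147 and 0.158), nor Pcdhgb1 without alpha replicate 1 (adjusted p = 0.0738).

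In the alpha cluster, Pcdha12 measured 1.43 and 1.92 RPKM in delta libraries, 0.126, 0.0789 and 0.0873 RPKM in alpha libraries and 0.356 to 0.868 RPKM in beta libraries, in the order delta, beta, alpha with no overlap. Pcdha10 was lower in alpha than in beta cells (-0.72, SE 0.12, adjusted p = 0.000718), with 0.354 ± 0.0893 RPKM in alpha and 1.41 ± 0.458 RPKM in beta cells, and averaged 1.80 ± 0.177 RPKM in delta cells. Of the 7 beta cluster genes tested, 1 was called higher and 1 lower in delta against beta cells. Pcdhb1 measured 3.14 and 3.92 RPKM in delta libraries, 0.512, 0.892 and 1.40 RPKM in alpha libraries and 0.326 to 1.77 RPKM in beta libraries, 1.22 (SE 0.20, adjusted p = 0.000998) above beta and 1.17 (SE 0.22, adjusted p = 0.00259) above alpha cells, the last not called without delta replicate 1 (adjusted p = 0.0538). The gene called lower was Pcdhb22, at 1.53 and 1.63 RPKM in delta libraries, 2.25, 2.53 and 3.05 RPKM in alpha libraries and 2.79 to 4.75 RPKM in beta libraries. It was lower in delta than in beta cells (-0.90, SE 0.13, adjusted p = 0.000423), in alpha than in beta cells (-0.38, SE 0.11, adjusted p = 0.0198) and in delta than in alpha cells (-0.52, SE 0.14, adjusted p = 0.016); without alpha replicate 3 the last 2 were not called (adjusted p = 0.0976 and 0.0566), nor the alpha one without beta replicate 3 or alpha replicate 1 (adjusted p = 0.0559 and 0.0585), nor the delta against alpha one without delta replicate 2 (adjusted p = 0.155).

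**Figure D4:**
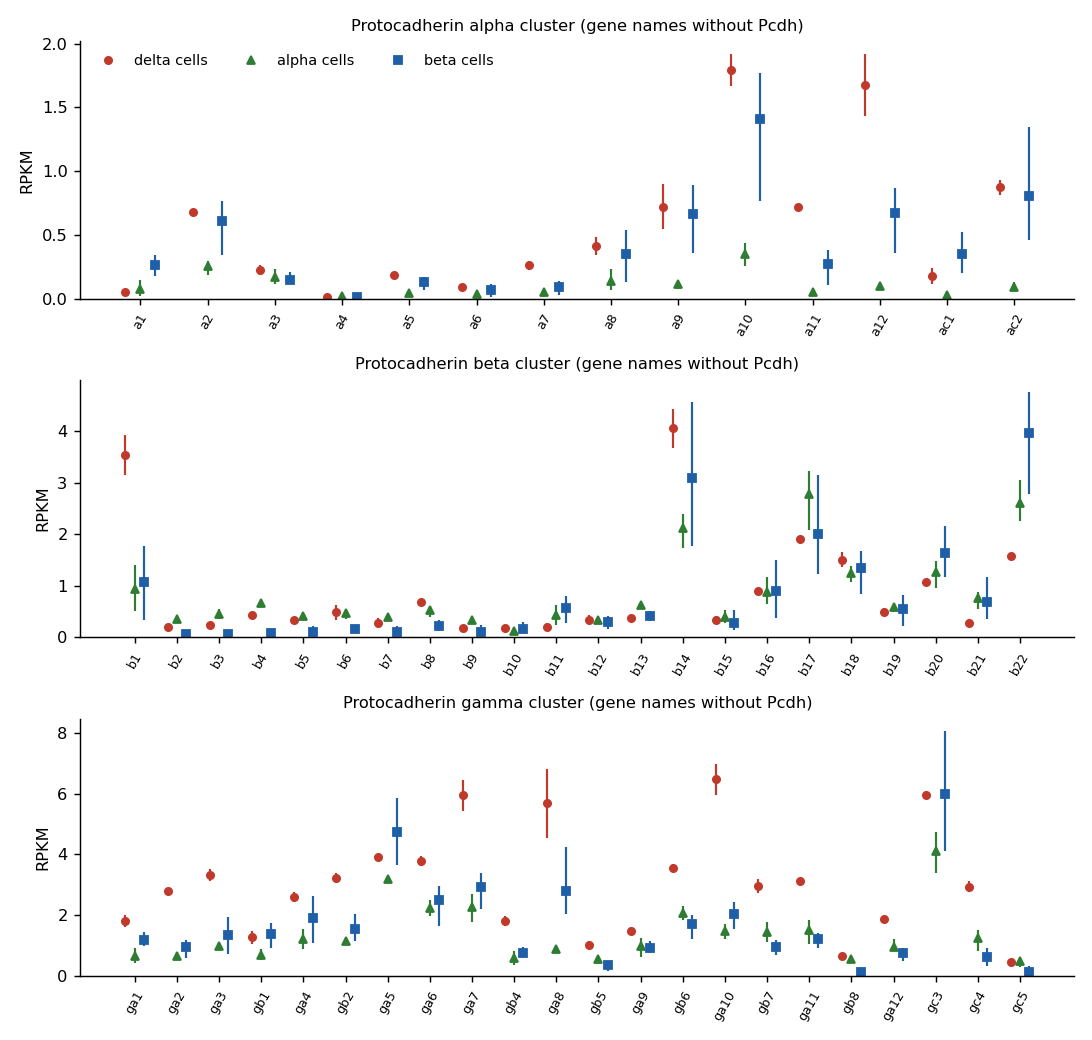
RPKM of all 58 clustered protocadherins in the alpha, beta and gamma clusters, in the order of the deposited table, with a point at the mean of delta, alpha and beta cells and a line over the range of their libraries; each panel has its own axis from 0. Delta points lie on top over most of the gamma cluster, while in the beta cluster Pcdhb1 is highest in delta cells and Pcdhb22 in beta cells.

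The 81 members that were not tested were low throughout: 5 reached 1 RPKM in a single library, the highest being Pcdhac2 at 1.35 RPKM, and 36 members had at most 30 reads over the 10 libraries. Second-highest library values just outside the limit were 0.934 RPKM for Pcdhac2 and 0.891 RPKM for Pcdha9, and just inside 1.18 RPKM for Pcdhb16 and 1.21 RPKM for Cldn2. Members known from other islet cells were among the low ones. Cdh5, the cadherin of endothelium, was 0.112 and 0.351 RPKM in delta, 0.0902 to 0.662 RPKM in alpha and 0.298 to 0.918 RPKM in beta libraries. Cldn5, the claudin of endothelium, was at most 0.199 RPKM, the arterial connexin gene Gja5 at most 0.0177 RPKM, and Gja4, also known from endothelium, was 0.176 and 0.383 RPKM in delta libraries, at most 0.0351 RPKM in alpha and at most 0.0905 RPKM in beta libraries. Cdh19, known from Schwann cells, had 4 reads in all. With no limit on low values, all 133 members entered the fit, which called 51 higher and 7 lower in delta against beta cells (27.4% and 10.2% of all genes), 25 and 28 in alpha against beta cells (19% and 22.2%), and 50 and 10 in delta against alpha cells (23% and 5.15%).

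The proteins that junctions are built with were counted in lists of known partners, chosen with earlier results of these data known. Of all tested genes, 37.4% were called higher and 13.3% lower in delta against beta cells. The shares were 23.7% and 30.3% in alpha against beta cells and 32.1% and 5.89% in delta against alpha cells. Of 14 adherens junction partners tested (catenins, nectins and their linkers), delta against beta cells called 8 higher and 1 lower (median 0.60), alpha against beta cells 3 and 5, and delta against alpha cells 8 and 0. Ctnnb1, which encodes beta-catenin, averaged 269 RPKM in delta, 168 RPKM in alpha and 225 RPKM in beta cells. It was not called between delta and beta cells (0.28, limma adjusted p = 0.0872). Alpha cells were lower than beta cells (-0.38, adjusted p = 0.0175), and delta cells higher than alpha cells (0.65, adjusted p = 0.0047). Ctnna1, alpha-catenin, averaged 67.2 RPKM in delta and 65.3 RPKM in beta cells (0.06, adjusted p = 0.698) and was not called in any comparison. Plekha7, a linker of cadherin to microtubules, was higher than in beta cells by 2.26 (adjusted p = 9.66e-07) in delta and by 1.64 (adjusted p = 3.47e-06) in alpha cells. Pvrl4, which encodes nectin-4, averaged 3.53 RPKM in delta, 0.156 RPKM in alpha and 0.506 RPKM in beta cells.

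Of 25 tight junction partners, delta against beta cells called 16 higher and 4 lower (median 0.73), alpha against beta cells 5 and 11, and delta against alpha cells 19 and 0, the last count being 12 with median-ratio scaling. The shares of all tested genes were 37.4% and 13.3%, 23.7% and 30.3%, and 32.1% and 5.89% in the same comparisons. With median-ratio scaling 14.3% of all genes were called higher in delta against alpha cells. Igsf5, an adhesion protein of tight junctions, averaged 44.1 RPKM in delta, 4.29 RPKM in alpha and 5.92 RPKM in beta cells. Jam2, a junctional adhesion molecule, averaged 15.8 RPKM in delta, 0.704 RPKM in alpha and 2.87 RPKM in beta cells, and both were called in delta against each other type. Ocln, which encodes occludin, averaged 20.9 RPKM in delta, 1.89 RPKM in alpha and 8.15 RPKM in beta cells and was lower in alpha than in beta cells (-1.61, SE 0.20, adjusted p = 0.000134). Of 9 desmosome genes, delta against beta cells called 6 higher and 0 lower (median 0.66). Alpha against beta cells called 2 and 5, and delta against alpha cells 7 and 0. With median-ratio scaling the delta against beta count was 3 higher and 1 lower, beside 24.2% and 24.5% of all genes. Dsp, which encodes desmoplakin, averaged 41.5 RPKM in delta, 6.05 RPKM in alpha and 26.9 RPKM in beta cells, and alpha cells were lower than beta cells (-1.92, SE 0.18, adjusted p = 3.01e-05).

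Of 10 other genes of the cadherin superfamily, delta against beta cells called 5 higher and 2 lower (median 0.49), alpha against beta cells 6 and 4, and delta against alpha cells 5 and 1. All tested genes stood at 37.4% higher and 13.3% lower, 23.7% and 30.3%, and 32.1% and 5.89% in the same comparisons. Cdhr2, a cadherin of the brush border, averaged 21.5 RPKM in delta, 1.68 RPKM in alpha and 1.12 RPKM in beta cells. Its delta level was 3.44 (SE 0.13, limma adjusted p = 1.26e-07) above beta and 3.03 (SE 0.15, adjusted p = 8.94e-07) above alpha cells. The calsyntenins, which act at synapses, went separate ways. Clstn3 was highest in delta cells at 28.5 RPKM, with 7.95 RPKM in alpha and 5.90 RPKM in beta cells. Clstn2 was highest in alpha cells, at 0.778 RPKM in delta, 7.39 RPKM in alpha and 0.978 RPKM in beta cells. Clstn1 averaged 57.8 RPKM in delta, 17.2 RPKM in alpha and 45.5 RPKM in beta cells.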

How the data were processed

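RNA-seq libraries of sorted delta, alpha and beta cells were prepared with Illumina's TruSeq kit, sample prep version 2, per the labels' protocols. The authors deposited 1 table of RPKM values per gene and library; STAR 2.4, featureCounts and edgeR 3.12.0 with GRCm38.p3 are named in the submitters' processing notes. For the annotation counted and for reads matching several genes, the setting was not given in the sources used here. Every library column of the table was mapped to a sample by its name, leaving 0 unmapped. Nothing in the labels says that each library came from its own pool of islets. The p-values therefore reflect the spread among these libraries alone, part of which may be technical.

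Members were taken by symbol; 129 match 1 gene in GENCODE vM21 (GRCm38), whose 1-based coordinates are given. The test was limma (version 3.58.1, under R 4.3.3) on log2(RPKM + 1), with terms for cell type and sex and a prior variance that follows the mean, over genes with at least 1 RPKM in at least 2 libraries and Benjamini-Hochberg adjustment. Fold changes on that scale understate low genes. Residual degrees of freedom were 6, prior ones 3.16 (median over genes), and the procedure was tested on simulated data. Read totals and reads per member were recovered from the steps between low RPKM values, with the smallest gene length of at least 600 bases that fits; reads of sparse members are lower bounds. The sampling error they imply covers counting error only. Alternatives were pseudocounts of 0.1 and 5, no filter and a filter at 5 RPKM, other scalings, other terms, subtraction of an alpha share from delta libraries, and leaving out each library. A replicate block for libraries with adjoining title numbers was added after the data were seen.

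The members, the partner and marker lists and the tests were chosen with earlier results of these data known. Named are Gjd2, Cdh1, Cdh2, Panx1, Panx2, members averaging at least 5 RPKM in a cell type, the 5 largest called members of each family, direction and comparison, members enriched in 1 type, and Cdh5, Cldn5, Gja4, Gja5 and Cdh19; of the partner lists, up to 3 called and 2 uncalled genes each. Low members described by the fit without a filter, Gja1, Gjb1, Gjb2, Krt19 and A530058N18Rik were named after their values were seen.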

Additional observations from a re-analysis of the deposited data

Results flagged for a closer look

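Of 41 named members examined for a beta library that stands apart (groups of 4 to 10 libraries only, so not delta or alpha cells), 1 did. Cdh5, the endothelial cadherin, was 0.918 RPKM in beta replicate 1, while the other 4 beta libraries lay between 0.298 and 0.452 RPKM, so the gap to its nearest neighbour took 0.751 of the range. Chance marks about 1 in 20 such groups. Cdh5 was below the limit for testing.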

How the results depend on the processing

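Of 111 comparisons of named members, 83 were called and 59 of these kept their call and direction under every alternative run. No called difference changed sign; of the 28 not called, 15 changed sign under some alternative. The counts of called members depended on the filter, which sets how many members enter, and on the scaling. For delta against beta cells, 51 members were higher with no filter, 14 with a filter at 5 RPKM, 20 with quantile normalization and 21 to 35 with a library left out; 7 were lower with no filter, 1 with the filter at 5 RPKM, 7 with median-ratio scaling, 10 with quantile normalization and 2 to 3 with a library left out. For alpha against beta cells, 25 were higher with no filter, 2 with the filter at 5 RPKM and 5 to 9 with a library left out (5 without alpha replicate 2); 11 were lower with the filter at 5 RPKM and 15 to 22 with a library left out. For delta against alpha cells, 18 were higher with the filter at 5 RPKM and 20 to 37 with a library left out; 10 were lower with no filter, 0 with the filter at 5 RPKM, 5 with quantile normalization and 2 to 3 with a library left out. Members enriched in delta cells were 19 with a pseudocount of 0.1, 5 with a pseudocount of 5, 6 with quantile normalization and 7 to 11 with a library left out; in alpha cells 2 with a pseudocount of 0.1, 0 with a pseudocount of 5 and 0 with the filter at 5 RPKM; in beta cells 1 with a pseudocount of 5, 1 with the filter at 5 RPKM and 1 to 2 with a library left out (1 without delta replicate 2). The cause of the changes with scaling was not tested. For the filter at 5 RPKM, the left-out libraries, the replicate block below and the enriched members under any alternative, the share of all genes is not given. Those counts do not show whether the members moved apart from the whole table. With 2 delta libraries, delta values have the least replication, and members under 1 RPKM rest on few reads. The labels state no pairing and no title number is shared between the groups, but 4 pairs of libraries of 1 sex have adjoining title numbers. Within groups, beta replicates 4 and 5 share a title number, as do alpha replicates 1 and 2. Whether these came from the same pool of islets is not stated, and the tests treated them as separate libraries. The correlation of deviations from the group means was 0.00 for delta and beta replicate 1, 0.37 for delta and beta replicate 2, 0.27 for alpha replicate 2 with beta replicate 3 and 0.46 for alpha replicate 3 with beta replicate 5, so not every pair deviated together. A replicate block on these pairs in place of sex, added after the data were seen and with 2 residual degrees of freedom, called 33 members higher and 3 lower in delta against beta cells, 8 and 17 in alpha against beta cells, and 35 and 1 in delta against alpha cells. Among the named comparisons it ended 6 calls and added 3 with the direction kept (Panx2 and Cldn4 in alpha against beta cells, Cldn25 in delta against beta cells). It left 1 member enriched in beta cells, and Cdh7 was then higher in delta than in alpha cells (1.07, adjusted p = 0.0168), against -0.01 without the block.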

Other observations

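Low members outside the tests still differed in levels between the sorts; those given here were chosen from the fit with no limit on low values, after their values were seen. Cdh23, the tip link partner of Pcdh15, was 0.207 and 0.282 RPKM in delta libraries, 0.0102 to 0.0160 RPKM in alpha and 0.0153 to 0.0601 RPKM in beta libraries, from 106, 7 and 47 reads. Pcdh17 had 108 reads in the delta, 23 in the alpha and 13 in the beta libraries. Cdh18 had 22 reads, all in the 3 alpha libraries, and Cdh13 had 5 reads in delta, 59 in alpha and 8 in beta libraries. In the protocadherin beta cluster, Pcdhb3 was 0.222 and 0.270 RPKM in delta, 0.348 to 0.545 RPKM in alpha and 0.0227 to 0.0892 RPKM in beta libraries. Pcdhb4 was 0.373 and 0.478 RPKM in delta, 0.596 to 0.733 RPKM in alpha and 0.0718 to 0.111 RPKM in beta libraries, so that the beta libraries lay lowest for both.

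A noncoding gene on the opposite strand, A530058N18Rik, shares 57 exon bases with Gjd2 in GENCODE vM21. It was 9.48 and 9.87 RPKM in delta libraries, 5.34, 4.70 and 5.81 RPKM in alpha libraries and 19.2, 14.7, 20.1, 24.9 and 22.4 RPKM in beta libraries, in the same order as Gjd2. It differed by -0.96 (limma adjusted p = 0.00187) between delta and beta and by -1.72 (adjusted p = 2.09e-05) between alpha and beta cells. Without strand in the libraries, reads over the shared bases cannot be told apart.

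Gjb2 and Gjb1, connexins known from exocrine pancreas and liver, were highest in the beta libraries with the most acinar RNA. Gjb2 was 0.650, 0.586 and 0.967 RPKM in beta replicates 1, 3 and 5 and 0.102 and 0.304 RPKM in beta replicates 2 and 4, and Gjb1 was 0.331, 0.226 and 0.401 RPKM against 0.0274 and 0.0288 RPKM. In alpha libraries the highest of both, 0.419 and 0.198 RPKM, were in replicate 2, which had the most acinar RNA of the 3. The part of acinar cells in these values was not tested.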
